A study of Homo sapiens with 12 samples.

Results

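The endoplasmic reticulum (ER) folds the proteins that a cell secretes or places in its membranes. When unfolded proteins accumulate there, the sensors IRE1 (gene ERN1), ATF6 and PERK start the unfolded protein response, which raises the transcription of chaperones, disulfide isomerases and the machinery that returns misfolded proteins to the cytosol for destruction (ER-associated degradation, ERAD). IRE1 splices the mRNA of XBP1, ATF6 is released from the membrane as a transcription factor, and PERK phosphorylates eIF2alpha and so raises translation of ATF4. Other kinases reach eIF2alpha and ATF4 without the ER, among them the one that senses a lack of amino acids.

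The genes described here were a hand-made list of 37 names for the ER sensors, chaperones, isomerases and ERAD proteins, with ATF4 and its partners left out. VIMP is the older name of SELENOS, so that 36 genes remained, of the 58735 rows of the tables, and all 36 were present. They were measured by RNA-seq in 2 human neuroblastoma cell lines: KELLY, in which MYCN is amplified, and SK-N-AS, in which it is not. Erastin blocks the cystine/glutamate antiporter system Xc- and thereby starves cells of cysteine and glutathione. KELLY cells received 1 µM Erastin for 24 h, SK-N-AS cells 2 µM for 24 h, and the controls DMSO, with 3 samples in each of the 4 groups. Wells were seeded in triplicate, so p-values measure the spread between wells within a cell line, also where the 2 lines are compared. No p-value measures the spread between cell lines, and the dose and the line cannot be told apart. Each group is thus 1 established line grown in culture.

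Total counts were between 24169796 and 29835670 per library. MYCN had 116651 to 159802 counts in the KELLY libraries and 1 to 11 in the SK-N-AS libraries. All 11 adrenergic neuroblast markers had a group mean above 1 CPM (counts relative to the library total, scaled by TMM over the 12 libraries) in every group. Their summed level was 4629 to 11274 CPM in KELLY and 989 to 1106 CPM in SK-N-AS, whereas 9 markers of the mesenchymal neuroblastoma state summed to 110 to 162 CPM and 2420 to 2844 CPM. Of 11 blood markers, PTPRC was at 452 to 624 CPM in SK-N-AS and at 0 counts in KELLY, while CD3E, MS4A1 and LYZ were at 0 in all libraries and the KELLY sum, led by HBB, was 0.163 to 15.0 CPM. Of 7 epithelial and endothelial markers, KRT18 alone passed 1 CPM in SK-N-AS and VWF alone in KELLY, with sums of 130 to 183 CPM and 2.74 to 4.40 CPM. Libraries of 1 group differed in how their counts followed gene GC content. Spearman's correlation of GC content with the log2 ratio to the mean of the line ran from -0.84 to 0.88 over the KELLY libraries and from -0.76 to 0.78 over the SK-N-AS libraries.

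The promoters of these genes carry well-studied elements. The ER stress response element (ERSE) is CCAAT, any 9 bases, and CCACG, and ERSE-II is ATTGG, any base, and CCACG. Both are bound by ATF6 together with NF-Y, and XBP1 also acts on them. Promoters, taken from RefSeq (GRCh38.p14) as 250 bases before to 50 bases after the start site, were given for 32 of the 36 genes and for 35116 entries in all. An exact search on both strands found ERSE in 27 of these 35116 promoters (0.0769%), of which 7 genes belong to the list, and ERSE-II in 19 (0.0541%), of which 3 belong to the list. The search is a description, and a match is not proof of a site. The list holds known targets of ATF6, which binds these elements, so the list and the elements are not independent. The 12 elements are shown 5′ to 3′ in the orientation of the element, with 10 bases on each side. Capitals mark the fixed letters of the element.
PDIA6 ERSE, chr2:10812843-10812881: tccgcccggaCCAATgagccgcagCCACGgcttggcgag
CANX ERSE, chr5:179698768-179698806: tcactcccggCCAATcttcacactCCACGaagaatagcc
HSPA5 ERSE, chr9:125241381-125241419: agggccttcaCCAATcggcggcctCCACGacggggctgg
HSP90B1 upstream ERSE, chr12:103930206-103930244: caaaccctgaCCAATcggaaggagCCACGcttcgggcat
HSP90B1 downstream ERSE, chr12:103930311-103930349: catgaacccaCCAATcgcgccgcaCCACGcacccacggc
CALR ERSE, chr19:12938374-12938412: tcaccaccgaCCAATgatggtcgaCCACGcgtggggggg
XBP1 ERSE, chr22:28800593-28800631: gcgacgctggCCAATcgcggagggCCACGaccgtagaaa
CRELD2 ERSE, chr22:49918544-49918582: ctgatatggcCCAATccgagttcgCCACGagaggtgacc
HYOU1 upstream ERSE-II, chr11:119057370-119057400: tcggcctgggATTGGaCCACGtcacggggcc
HYOU1 downstream ERSE-II, chr11:119057264-119057294: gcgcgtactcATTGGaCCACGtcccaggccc
HERPUD1 ERSE-II, chr16:56932015-56932045: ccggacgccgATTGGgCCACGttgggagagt
SDF2L1 ERSE-II, chr22:21642104-21642134: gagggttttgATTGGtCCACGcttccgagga

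In the strand of the gene, the elements of PDIA6, CANX, HSPA5, XBP1 and HERPUD1 and the upstream element of HSP90B1 read forward, and the other 6 read backward. The XBP1-binding core TGACGTGG (UPRE) stood in 256 of the 35116 promoters (0.729%), among them those of DNAJC10 and HYOU1, and in HYOU1 it overlapped the upstream ERSE-II. The ATF4-binding cores TGATGCAAT and TGATGAAAT stood in 83 (0.236%) and 105 (0.299%) promoters and in none of these genes. The 8 letters TGATGCAA, which the first of these cores contains and which were searched only after the HERPUD1 promoter had been read, stood in 304 promoters (0.866%), and among these genes in HERPUD1 alone.

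Erastin raised the transcripts of 2 of these genes in SK-N-AS cells, the transcription factor XBP1 and the ERAD protein HERPUD1, a partner of the ubiquitin ligase of the ER membrane. On GRCh38, XBP1 (ENSG00000100219.17) lies at chr22:28794555-28800597 on the minus strand and HERPUD1 (ENSG00000051108.15) at chr16:56932142-56944864 on the plus strand. The 250 bases before their RefSeq start sites are shown because these were the 2 genes called. Those of HSPA5 stand beside them because it also holds an ERSE in the direction of the gene and was not called. The gene coordinates are from GENCODE, and for XBP1 and HSPA5 the RefSeq start site lies inside them, so each stretch overlaps the gene in part. Capitals mark the fixed letters of ERSE or ERSE-II and, in HERPUD1, also the 8 letters above, which read backward here.
XBP1, chr22:28800570-28800819, minus strand: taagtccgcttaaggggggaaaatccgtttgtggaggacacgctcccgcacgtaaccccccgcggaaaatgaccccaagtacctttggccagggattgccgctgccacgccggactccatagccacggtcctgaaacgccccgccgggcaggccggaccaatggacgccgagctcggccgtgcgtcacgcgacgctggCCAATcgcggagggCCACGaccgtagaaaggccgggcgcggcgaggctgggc
HERPUD1, chr16:56931892-56932141, plus strand: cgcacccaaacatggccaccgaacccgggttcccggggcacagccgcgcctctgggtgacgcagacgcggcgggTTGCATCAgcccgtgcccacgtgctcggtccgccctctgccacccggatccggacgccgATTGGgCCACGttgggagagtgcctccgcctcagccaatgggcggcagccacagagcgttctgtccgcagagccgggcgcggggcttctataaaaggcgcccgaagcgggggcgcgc
HSPA5, chr9:125241344-125241593, minus strand: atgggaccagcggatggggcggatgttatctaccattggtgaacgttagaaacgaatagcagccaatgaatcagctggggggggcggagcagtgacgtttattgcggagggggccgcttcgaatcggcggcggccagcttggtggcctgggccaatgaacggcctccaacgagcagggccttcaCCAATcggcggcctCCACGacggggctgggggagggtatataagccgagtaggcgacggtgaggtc

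Erastin was compared with DMSO in each line by edgeR's quasi-likelihood test, on the genes left by its standard low-count filter. Genes were called differentially expressed (DEGs) where they changed 1.5-fold or more with p of 0.05 or less before adjustment, the thresholds of the study's methods. A Benjamini-Hochberg adjusted p under 0.05 was counted separately. Of the 36 genes, 35 passed the filter in each line. DERL3, an ERAD protein of the derlin family, had 1 to 9 counts per library and was not tested, and 88.8% of its exons lie opposite those of SMARCB1. Whether reads were counted by strand is not given in the sources used here, so this and smaller overlaps on the other strand (45.3% of the exon length of PDIA6, 21.7% each of PDIA3 and P4HB) cannot be resolved.

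In SK-N-AS, 2 of the 35 tested genes were DEGs, both upward, and the same 2 had an adjusted p under 0.05. Over all 16095 genes tested, 2.67% were DEGs in either direction, 1.34% were DEGs that rose, and 0.659% had an adjusted p under 0.05. XBP1 had 84.9, 92.8 and 95.8 CPM with DMSO and 130.5, 159.9 and 144.7 CPM with Erastin. The Erastin samples lay above all DMSO samples. The log2 fold change was 0.70 (standard error 0.09, 95% interval 0.49 to 0.90, edgeR adjusted p = 0.00309). HERPUD1 had 38.5, 40.4 and 37.2 CPM with DMSO and 60.6, 78.4 and 70.0 CPM with Erastin, again without overlap. Its log2 fold change was 0.87 (standard error 0.10, 95% interval 0.65 to 1.10, edgeR adjusted p = 0.00118). Counts per gene do not separate the spliced from the unspliced XBP1 mRNA, so that activity of IRE1 was not measured.

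The main chaperones were not called. HSPA5 encodes BiP, the most studied target of the unfolded protein response and the HSP70 of the ER lumen. It had 1076, 1180 and 1168 CPM with DMSO and 1069, 1141 and 1072 CPM with Erastin. The groups overlapped, and the 95% interval of the log2 fold change was -0.19 to 0.12 around -0.03. HSP90B1 encodes GRP94, the HSP90 of the ER, and had 1025, 1196 and 1311 CPM with DMSO and 1113, 1061 and 1103 CPM with Erastin, a log2 difference of -0.08 (95% interval -0.28 to 0.11). For both genes the interval excluded a 1.5-fold change in either direction. That was so for 10878 of all 16095 genes tested in SK-N-AS, and for 33 of the 35 genes here, all but XBP1 and HERPUD1. The plot of change by gene shows this as a column of narrow intervals around 0.

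**Figure D1:**
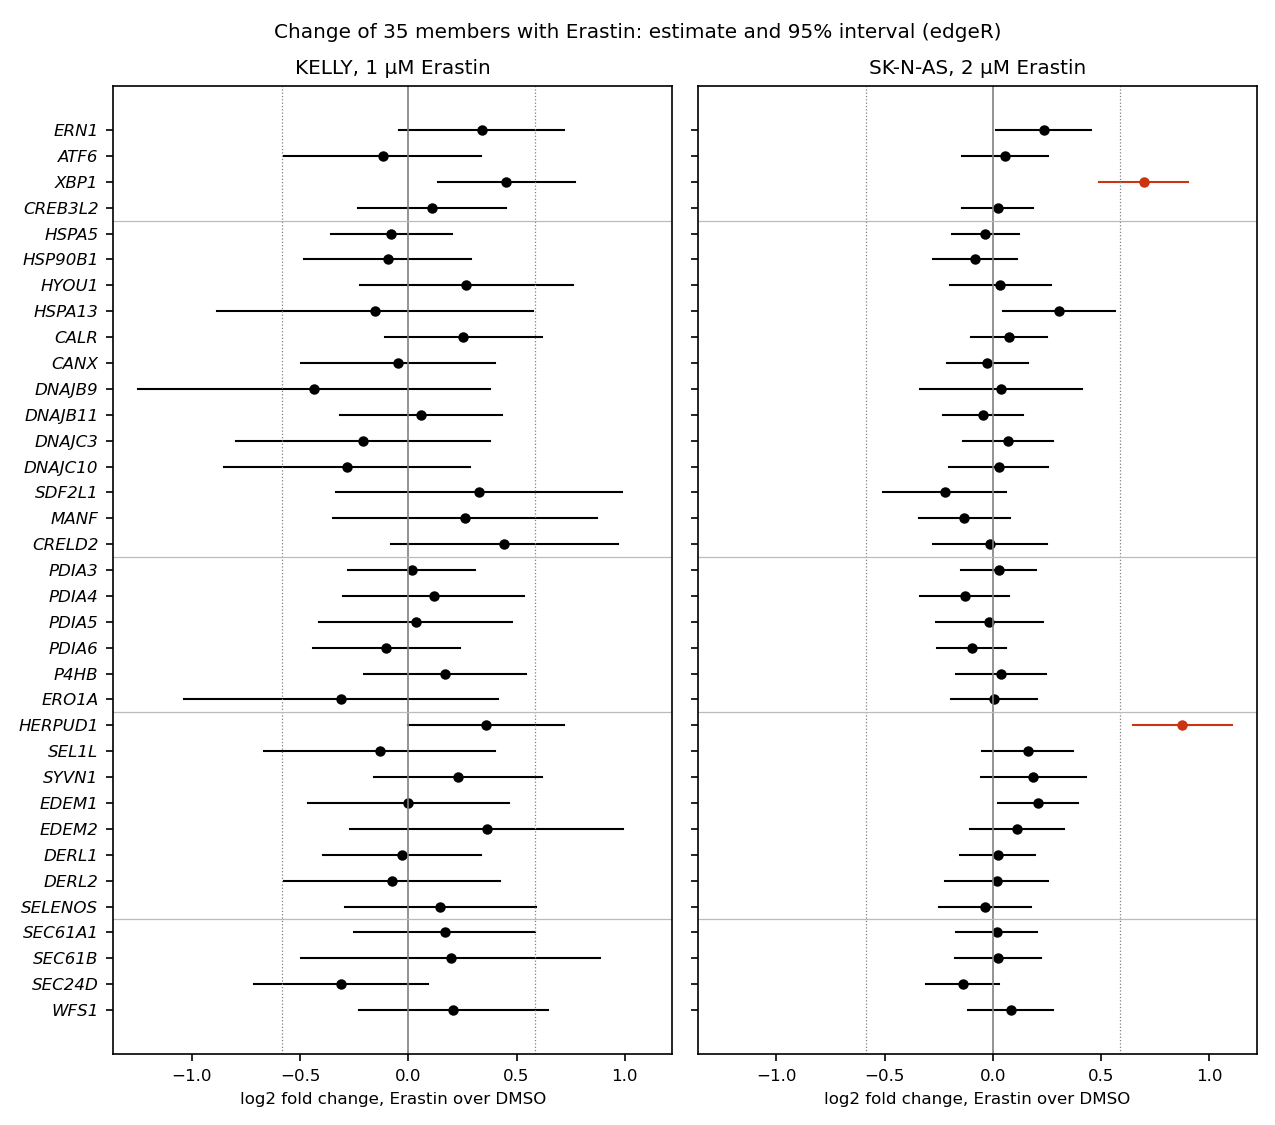
Change of the 35 tested genes with Erastin in KELLY (left, 1 µM) and SK-N-AS (right, 2 µM). The horizontal axis is the log2 fold change of Erastin over DMSO, points are edgeR estimates, bars are 95% intervals, red marks an adjusted p under 0.05, dotted lines mark 1.5-fold, and grey lines separate sensors and transcription factors, chaperones, isomerases, ERAD, and translocation or export. XBP1 and HERPUD1 in SK-N-AS, at 0.70 and 0.87, are the 2 red points, and the KELLY intervals are wider.

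Before adjustment, 5 of the 35 genes had a p of 0.05 or less in SK-N-AS, against 8.77% of all genes. After adjustment ERN1, HSPA13 and EDEM1, the other 3 of these, no longer passed. ERN1, the gene of the sensor IRE1, had 21.6, 21.8 and 19.1 CPM with DMSO and 23.6, 25.0 and 23.6 CPM with Erastin (log2 fold change 0.23, edgeR adjusted p = 0.523). HSPA13, a microsomal HSP70-like protein, had 64.8, 73.3 and 91.9 CPM with DMSO and 94.0, 89.1 and 95.9 CPM with Erastin (0.31, adjusted p = 0.445 from edgeR). EDEM1, a lectin that hands misfolded glycoproteins to ERAD, had a log2 fold change of 0.21 (edgeR adjusted p = 0.472). The Erastin samples of ERN1 and EDEM1 lay above those with DMSO, and those of HSPA13 overlapped them.

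Counted by samples, all Erastin libraries lay above all DMSO libraries for 5 genes in SK-N-AS (ERN1, XBP1, HERPUD1, EDEM1 and EDEM2), against 5.89% of all genes. They lay below for 3 (DNAJB11, PDIA6 and SEC24D), against 8.68%. The largest negative estimates belonged to SDF2L1, SEC24D and MANF, and none passed a threshold. SDF2L1, a cofactor of BiP, had 37.8, 36.3 and 28.2 CPM with DMSO and 27.6, 32.7 and 25.7 CPM with Erastin, which overlapped (log2 difference -0.22, edgeR adjusted p = 0.71). SEC24D, a cargo adaptor of the COPII coat that carries proteins out of the ER, had 266, 278 and 300.4 CPM with DMSO and 256, 251 and 246 CPM with Erastin. These groups did not overlap, with a log2 difference of -0.14 (edgeR adjusted p = 0.679). MANF, a secreted factor that binds BiP, had 38.6, 40.6 and 35.3 CPM with DMSO and 34.1, 36.3 and 32.2 CPM with Erastin (-0.13), and its groups overlapped.

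ATF6 and DNAJB9 complete the regulators and the genes most often read as targets. ATF6 had 113, 135 and 138 CPM with DMSO and 128, 132 and 134 CPM with Erastin in SK-N-AS (log2 difference 0.06, 95% interval -0.14 to 0.25). DNAJB9, a co-chaperone of BiP and a known XBP1 target, had 11.9, 17.2 and 21.4 CPM with DMSO and 17.4, 16.0 and 17.6 CPM with Erastin. Its groups overlapped, and its interval of -0.34 to 0.41 was among the widest in this line.

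**Figure D2:**
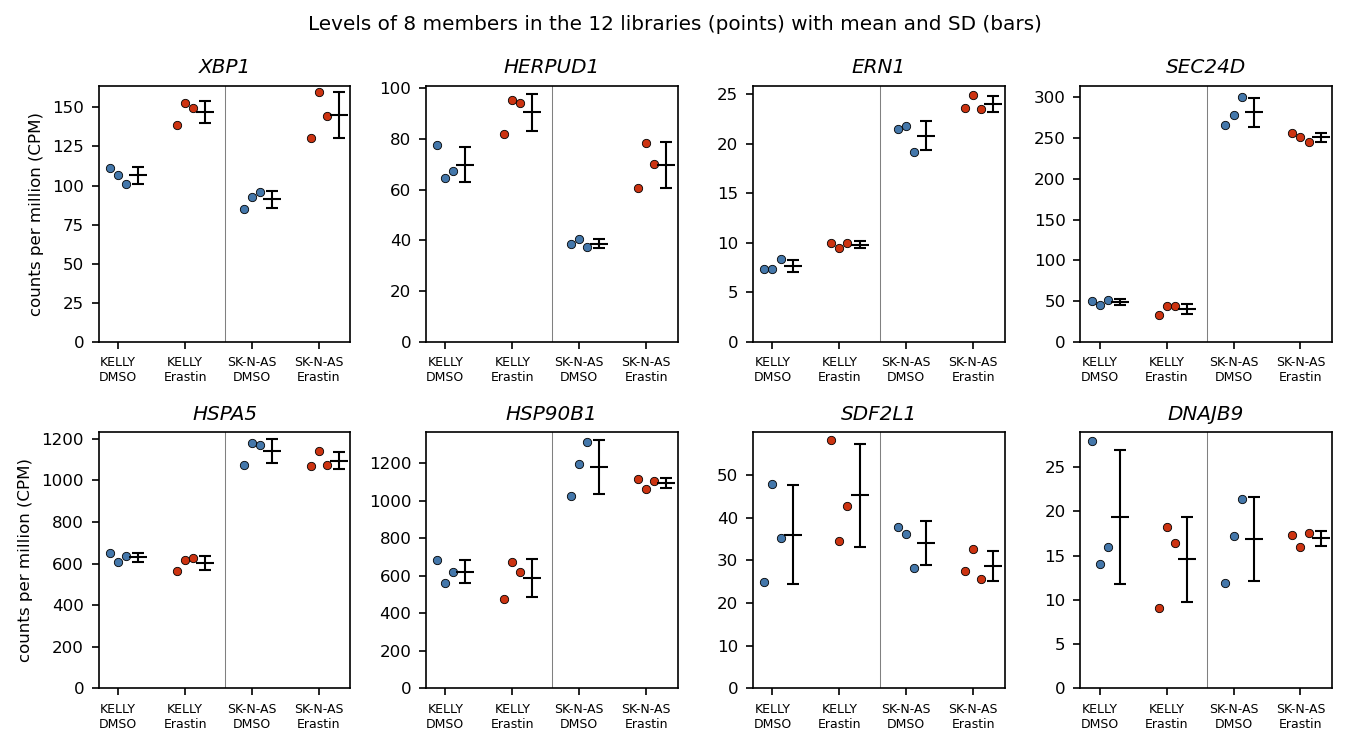
Levels of 8 genes in the 12 libraries, in CPM from 0, with KELLY left and SK-N-AS right of the grey line in each panel. Points are libraries (blue DMSO, red Erastin) and bars are the mean and SD of 3 libraries. XBP1, HERPUD1 and ERN1 (upward) and SEC24D (downward) separate by treatment in both lines, and HSPA5 and HSP90B1 overlap. SEC24D and ERN1 differ more between the lines than with treatment.

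In KELLY none of the 35 tested genes was a DEG, against 2.03% of all 16258 genes, and none had an adjusted p under 0.05, against 0.00615% of all genes (1 gene). With DESeq2 and limma-voom these counts were also 0. With 1 factor estimated from the residuals as a covariate, 14 of the 35 genes had an adjusted p under 0.05, XBP1 and HERPUD1 among them, but so did 31.0% of all genes, and none was a DEG. Such a factor takes up the spread of the same counts by construction, so no conclusion is drawn from these 14. One gene had an unadjusted p of at most 0.05 (2.64% of all genes did), and this was XBP1. It had 111, 107 and 101 CPM with DMSO and 139, 153 and 149 CPM with Erastin. The groups did not overlap, and the log2 fold change was 0.45 (standard error 0.14, 95% interval 0.14 to 0.77, unadjusted p = 0.0109 and adjusted p = 0.770 from edgeR). HERPUD1 had 77.5, 64.5 and 67.3 CPM with DMSO and 82.0, 95.1 and 94.2 CPM with Erastin, also without overlap (log2 fold change 0.36, unadjusted p = 0.0509 and adjusted p = 0.770 from edgeR).

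All Erastin libraries lay above all DMSO libraries for 3 genes in KELLY (ERN1, XBP1 and HERPUD1), against 4.47% of all genes, and below for SEC24D alone, against 3.78%. ERN1 had 7.36, 7.32 and 8.41 CPM with DMSO and 9.99, 9.44 and 10.01 CPM with Erastin (log2 difference 0.34, 95% interval -0.04 to 0.72). SEC24D had 50.4, 44.8 and 51.9 CPM with DMSO and 32.6, 43.8 and 43.4 CPM with Erastin (-0.31, 95% interval -0.71 to 0.09). The same 4 genes did not overlap, in the same directions, in SK-N-AS, where 5.89% of all genes lay above and 8.68% below. The share of all genes that did so in both lines was not counted.

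HSPA5 in KELLY had 649, 606 and 635 CPM with DMSO and 562, 617 and 627 CPM with Erastin (log2 difference -0.08, 95% interval -0.36 to 0.20). HSP90B1 had 683, 563 and 620 CPM with DMSO and 476, 674 and 617 CPM with Erastin (-0.10, 95% interval -0.48 to 0.29). Both groups overlapped for both chaperones. ATF6 had 123, 94.2 and 111 CPM with DMSO and 78.9, 117 and 111 CPM with Erastin (-0.12, 95% interval -0.57 to 0.34), and here too they overlapped.

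The genes with the largest other estimates in KELLY had wide spreads. CRELD2, a secreted ER stress protein, had 17.1, 23.9 and 20.9 CPM with DMSO and 36.0, 25.7 and 23.0 CPM with Erastin (log2 difference 0.44, unadjusted p = 0.0870 from edgeR). EDEM2, which trims mannose from glycoproteins bound for ERAD, had 7.77, 14.8 and 9.93 CPM with DMSO and 17.2, 11.7 and 13.1 CPM with Erastin (0.36). SDF2L1 had 24.8, 48.0 and 35.2 CPM with DMSO and 58.3, 34.6 and 42.8 CPM with Erastin (0.32). For each of the 3 genes the Erastin library of replicate 1 was the highest of the 6 and the DMSO library of replicate 1 the lowest.

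DNAJB9, at the other end, had 28.0, 14.1 and 16.0 CPM with DMSO and 9.10, 18.2 and 16.4 CPM with Erastin (log2 difference -0.44, 95% interval -1.25 to 0.38). ERO1A, the oxidase that recharges the isomerases, had 158, 81.4 and 110.1 CPM with DMSO and 63.6, 123 and 100.1 CPM with Erastin (-0.31). Here the order of the same libraries was inverted, with DMSO replicate 1 highest and Erastin replicate 1 lowest.

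These libraries also stood at opposite ends of the GC trend, with Spearman's correlations of -0.84 (DMSO replicate 1) and 0.88 (Erastin replicate 1). Across the 35 tested genes the KELLY log2 fold change followed the GC content of the transcript (Pearson's r = 0.79, Spearman's rho = 0.83). The points are genes that share the same 6 libraries, so this is a description. In SK-N-AS the same correlations were -0.09 and -0.04. Each library's GC trend was next removed, fitted without regard to treatment. A correlation near 0 follows from this method, and a change with Erastin that followed GC content is removed as well. After removal the KELLY correlation was -0.11 (rho -0.08) and the estimates, which had spanned -0.44 to 0.45, spanned -0.24 to 0.41. SDF2L1 then stood at -0.09, CRELD2 at 0.10 and DNAJB9 at -0.14. XBP1 stood at 0.41 (unadjusted p = 0.00266 from edgeR) and HERPUD1 at 0.39 (unadjusted p = 0.00268 from edgeR), each with an adjusted p of 0.377.

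**Figure D3:**
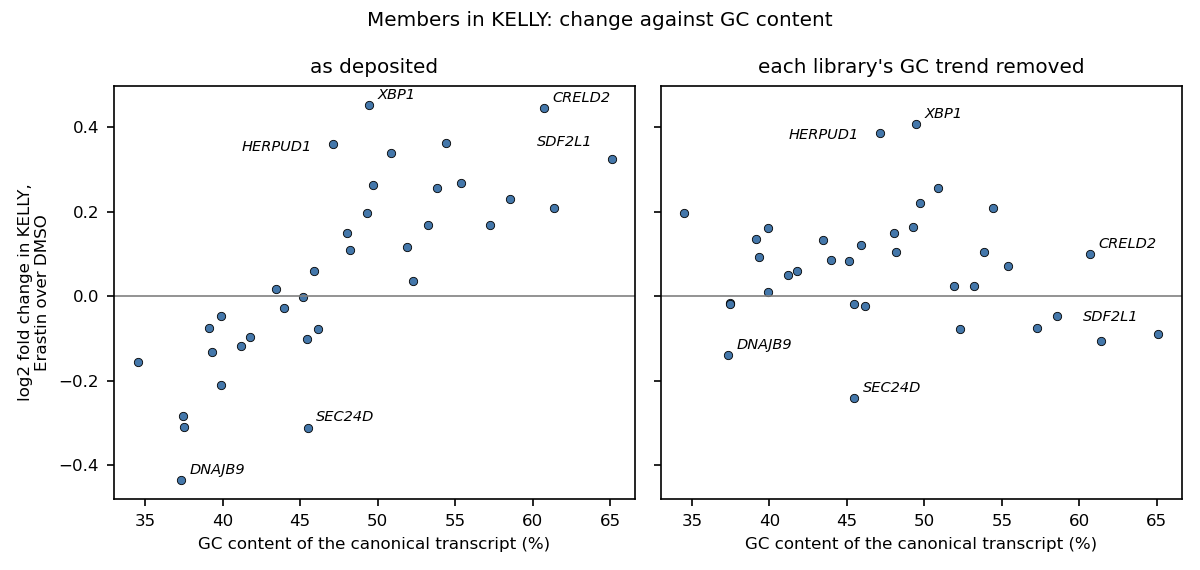
KELLY log2 fold change (Erastin over DMSO) of the 35 tested genes against the GC content of the canonical transcript in percent, before (left) and after (right) removal of each library's GC trend. Each point is 1 gene. Pearson's r is 0.79 on the left and -0.11 on the right, where the removal itself brings it near 0. XBP1 and HERPUD1 stand at the top on the right.

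After this correction the 95% interval lay within 1.5-fold for 31 of the 35 genes in KELLY, as against 14 before it. Before it, 3810 of all 16258 genes tested had such an interval. The number after it was not counted, so the rise from 14 to 31 cannot be called particular to these genes. In SK-N-AS the corrected fit gave 7 genes with an adjusted p under 0.05, where 6.74% of all genes then had one. XBP1 (0.68) and HERPUD1 (0.86) were joined upward by HSPA13 (0.31), EDEM1 (0.20), and the ubiquitin ligase SYVN1 (0.21, edgeR adjusted p = 0.0499) with its adaptor SEL1L (0.15, edgeR adjusted p = 0.0421). SEC24D joined downward (-0.15, edgeR adjusted p = 0.0464). All 5 added changes were under 1.5-fold, and HSPA5 and HSP90B1 stood at -0.05 and -0.09 without a call.

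By role, XBP1 was the only called gene of 4 sensors and transcription factors in SK-N-AS, and HERPUD1 the only one of 8 tested ERAD genes. None of 13 chaperones and co-chaperones, 6 isomerases and oxidases, or 4 translocation, export and membrane genes was called in either line. The isomerases of SK-N-AS, which form and rearrange disulfide bonds, spanned log2 fold changes of -0.13 (PDIA4) to 0.04 (P4HB). The median over the 35 genes was 0.02 in SK-N-AS (-0.01 over all genes tested) and 0.06 in KELLY (0.01 over all genes). In bulk counts a change per cell cannot be told apart from a change in the share of cells that carry the transcript. Summed over the 36 genes, the level was 8649 to 9289 CPM with DMSO and 8720 to 9156 CPM with Erastin in SK-N-AS. In KELLY it was 5232 to 5423 CPM with DMSO and 5233 to 5657 CPM with Erastin.

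The rest of the list lay close to 0 in SK-N-AS and spread more widely in KELLY. Of the J-domain co-chaperones that feed clients to BiP, DNAJC3 stood at 0.07 in SK-N-AS and -0.21 in KELLY, DNAJC10, which also reduces disulfides, at 0.03 and -0.28, and DNAJB11 at -0.04 and 0.06. The isomerases PDIA3 and PDIA5 stood at 0.03 and -0.02 in SK-N-AS and at 0.02 and 0.03 in KELLY. The derlins DERL1 and DERL2 stood at 0.02 each in SK-N-AS and at -0.03 and -0.08 in KELLY, and their partner SELENOS at -0.04 and 0.15. SEC61A1 and SEC61B, subunits of the channel that admits new proteins, stood at 0.02 each in SK-N-AS and at 0.17 and 0.20 in KELLY. WFS1, a membrane protein that restrains ATF6 and is mutated in Wolfram syndrome, stood at 0.08 and 0.21. All are log2 fold changes of Erastin over DMSO, and none was called.

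Of the 7 genes with ERSE, XBP1 alone was called in SK-N-AS, where 2.67% of all genes were DEGs. The other 6 lay between -0.10 (PDIA6) and 0.07 (CALR). Of the 3 with ERSE-II, HERPUD1 alone was called, while HYOU1, with a pair of ERSE-II copies and a role as nucleotide exchange factor of BiP, had a log2 fold change of 0.03 and SDF2L1 of -0.22. None of the 25 tested genes with neither element found was called there. These 25 include 3 tested genes for which no promoter was given (PDIA3, DERL1 and SEC24D). The medians in SK-N-AS were -0.03 for ERSE, 0.03 for ERSE-II and 0.03 for these 25 genes.

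**Figure D4:**
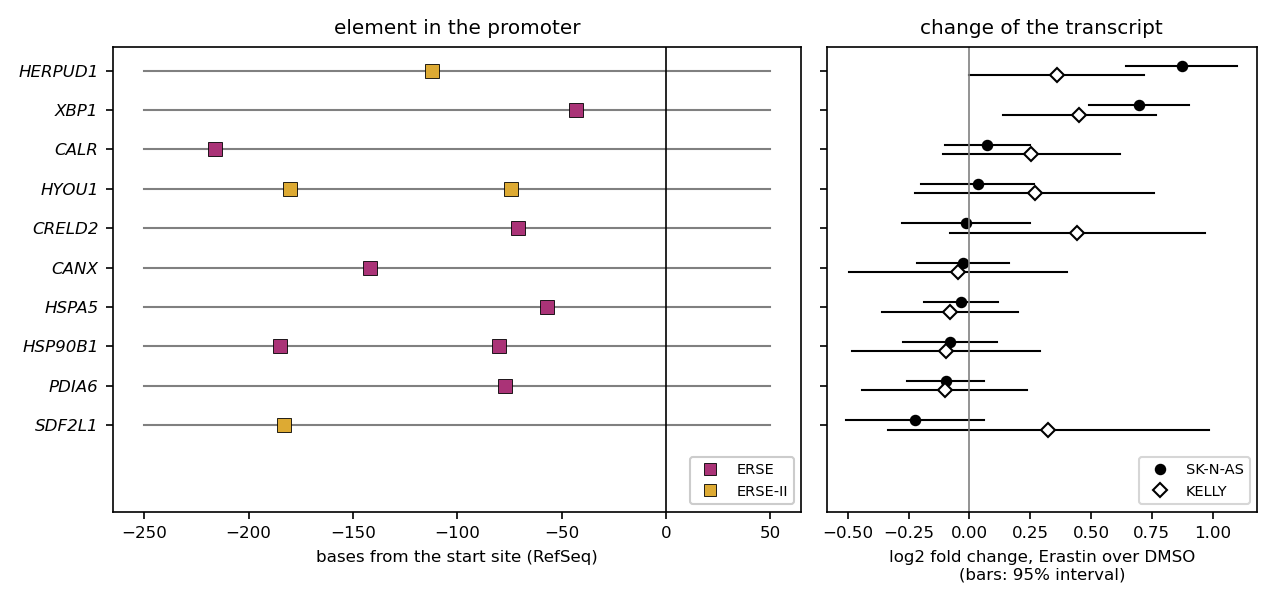
Left, centres of the ERSE and ERSE-II matches in the 10 promoters that hold them, in bases from the RefSeq start site. Right, log2 fold change of each transcript with Erastin in SK-N-AS (filled circles) and KELLY (open diamonds) with 95% intervals. HERPUD1 and XBP1, at the top, are the 2 called in SK-N-AS, and the other 8 genes lie between -0.22 and 0.07 there.

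The known targets of each factor were also counted. Of 12 genes known as ATF6 targets, 2 were called in SK-N-AS (XBP1 and HERPUD1), where 2.67% of all genes were DEGs and 0.659% passed the adjusted threshold, with a median log2 fold change of -0.02. Of 8 tested genes known as XBP1 targets none was called, with a median of 0.03 and a range of -0.14 to 0.21. In KELLY the medians were 0.26 and -0.04, with no gene called, and with the GC trend removed they were 0.10 and 0.02.

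Whether the response differed between the lines was tested as the interaction of treatment and line over all 12 samples, where 0.00548% of 18239 genes had an adjusted p under 0.05. None of the 35 genes did, and with DESeq2 and limma-voom none did either. With 1 factor estimated from the residuals, 10 did, HERPUD1 among them, as did 20.3% of all genes. As that factor takes up residual spread by construction, no conclusion is drawn from these 10. In the main fit the results were as follows. HERPUD1 alone had an unadjusted p of at most 0.05, against 4.25% of all genes. Its log2 fold change was larger in SK-N-AS by 0.51 (95% interval 0.11 to 0.90, unadjusted p = 0.0156 and adjusted p = 0.811 from edgeR). For XBP1 the difference was 0.24 (95% interval -0.09 to 0.57).

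More of the genes differed between the lines themselves. With DMSO, 17 of the 35 tested genes were higher in SK-N-AS (adjusted p under 0.05 and at least 1.5-fold), against 27.8% of all 17089 genes tested, and HERPUD1 alone was higher in KELLY, against 28.2%. The median log2 difference, KELLY minus SK-N-AS, was -0.56 over these genes and 0.02 over all genes. The 36 genes took 0.525% to 0.564% of the counts in KELLY with DMSO and 0.862% to 0.897% in SK-N-AS. Of the 9 mesenchymal markers given above, 8 were also called higher in SK-N-AS, and 1 differed the other way by 0.27 and was not called. Their part in the difference of the ER genes was not tested.

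SEC24D showed the largest difference, with 50.4, 44.8 and 51.9 CPM in KELLY and 266, 278 and 300.4 CPM in SK-N-AS, a log2 difference of -2.49 (standard error 0.13, edgeR adjusted p = 8.45e-07). CREB3L2, a membrane-bound transcription factor that drives secretory pathway genes, had 50.1, 45.9 and 49.5 CPM in KELLY and 155, 158 and 160 CPM in SK-N-AS. This was a log2 difference of -1.67 (edgeR adjusted p = 5.82e-06), and for neither gene did the lines overlap.

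P4HB and PDIA4, both disulfide isomerases and the first also a subunit of the collagen prolyl hydroxylase, followed. P4HB had 257, 341 and 298 CPM in KELLY and 959, 919 and 776 CPM in SK-N-AS (log2 difference -1.53, edgeR adjusted p = 2.37e-05). PDIA4 had 173, 273 and 250.4 CPM in KELLY and 725, 729 and 597 CPM in SK-N-AS (-1.53, edgeR adjusted p = 9.28e-05). Their relative PDIA6 differed by -0.15 (95% interval -0.45 to 0.16) and was not called.

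ERN1 was lower in KELLY by 1.40 on the log2 scale (7.36, 7.32 and 8.41 CPM against 21.6, 21.8 and 19.1 CPM, edgeR adjusted p = 7.47e-05), whereas ATF6 (-0.19) and XBP1 (0.26) were not called. The chaperones HSP90B1 (-0.88), HSPA5 (-0.82), HYOU1 (-0.80) and CALR (-0.69), the last a lectin chaperone of glycoproteins, were among the 17, and its partner CANX (-0.28, 95% interval -0.63 to 0.08) was not. HERPUD1, with 77.5, 64.5 and 67.3 CPM in KELLY and 38.5, 40.4 and 37.2 CPM in SK-N-AS, was higher in KELLY by 0.89 (standard error 0.14, edgeR adjusted p = 0.00067). Of the other ERAD genes, DERL1, SEL1L, EDEM1 and EDEM2 were higher in SK-N-AS. DERL2 differed the other way by 0.52 (edgeR adjusted p = 0.0206), which is under 1.5-fold. WFS1 (-1.33), DNAJC10 (-1.22), SEC61B (-1.19) and DNAJC3 (-0.63) complete the 17, while SEC61A1 (-0.12), the partner of SEC61B, was not called.

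**Figure D5:**
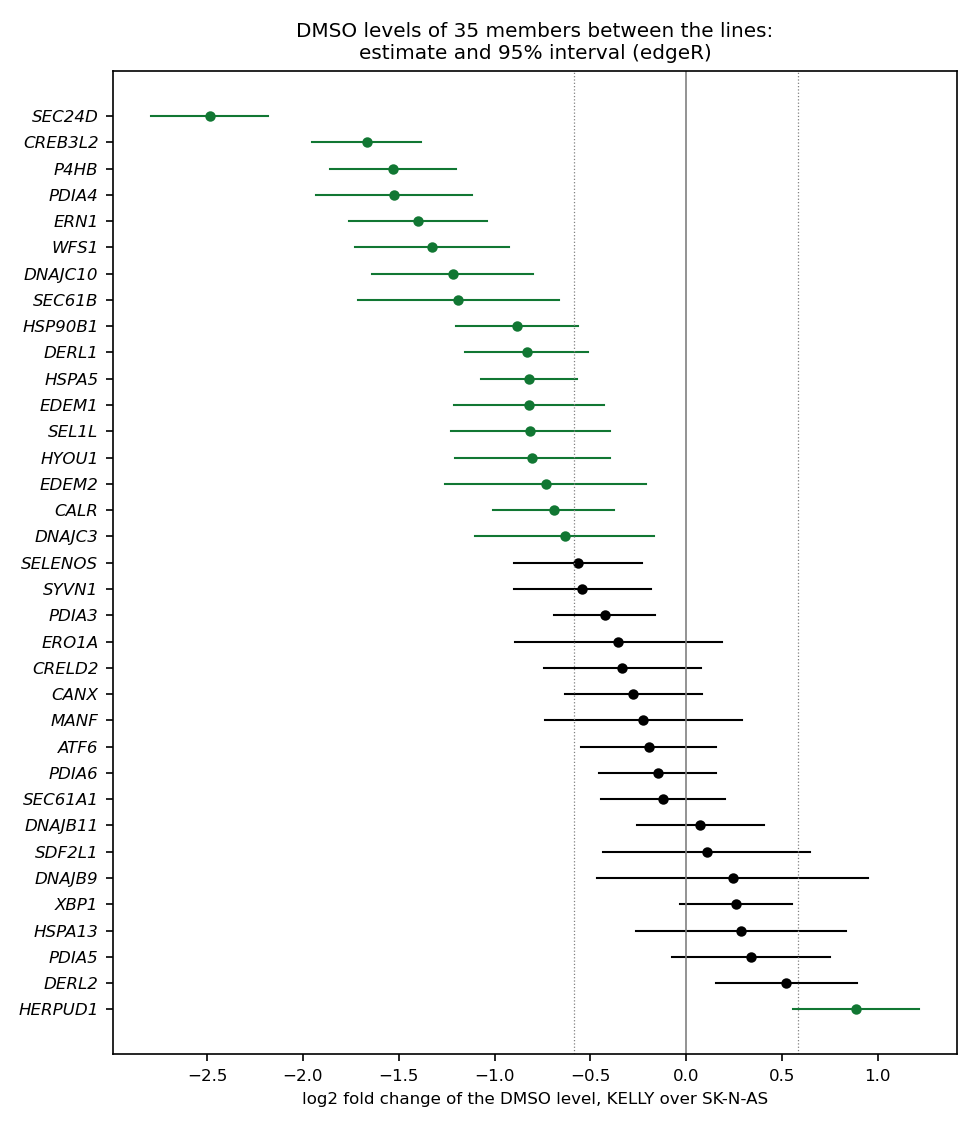
Difference of the DMSO levels between the lines for the 35 tested genes, as log2 fold change of KELLY over SK-N-AS (edgeR estimate and 95% interval). Green marks an adjusted p under 0.05 with at least 1.5-fold, and dotted lines mark 1.5-fold. SEC24D (-2.49) stands at the top and HERPUD1 (0.89), the 1 green gene to the right of 0, at the bottom.

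Per kilobase of transcript, CALR was the most abundant of these genes in both lines with DMSO, at 274 ± 43.4 CPM per kb in KELLY and 453 ± 34.3 in SK-N-AS (SD, n = 3). HSP90B1 came next with 224 ± 21.6 and 423 ± 51.7 CPM per kb (SD, n = 3), and its samples overlapped those of CALR in both lines. In KELLY, HSPA5 (161 CPM per kb) followed below all samples of HSP90B1, and CANX (149), PDIA6 (129) and P4HB (123) came after it, each overlapping the one before. In SK-N-AS, P4HB (363 CPM per kb) came after HSP90B1 and overlapped it, and HSPA5 (291) and PDIA4 (247) followed without overlap with their neighbours above. ERN1 was the lowest of the tested genes, at 0.928 to 1.07 CPM per kb in KELLY and 2.42 to 2.76 in SK-N-AS. Before Erastin, XBP1 stood at 59.4 CPM per kb in KELLY and 50.9 in SK-N-AS and HERPUD1 at 24.4 and 13.6 CPM per kb.

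The PERK arm, left out of the list, stood beside these genes as follows. ATF4 had 219, 348 and 293 CPM with DMSO and 564, 456 and 491 CPM with Erastin in KELLY (log2 fold change 0.81, unadjusted p = 0.00284 and adjusted p = 0.770 from edgeR). In SK-N-AS it had 114, 117 and 107 CPM with DMSO and 288, 353 and 305 CPM with Erastin (1.51, edgeR adjusted p = 5.16e-06), without overlap in either line. TRIB3, a pseudokinase and ATF4 target, was likewise a DEG in both lines, with 0.60 in KELLY (edgeR adjusted p = 0.770) and 1.06 in SK-N-AS (edgeR adjusted p = 0.00179). DDIT3, the transcription factor CHOP, had 0.981, 2.93 and 3.49 CPM with DMSO and 4.45, 4.06 and 3.98 CPM with Erastin in KELLY (0.75), and 3.32, 2.94 and 2.23 CPM and 4.15, 3.97 and 4.03 CPM in SK-N-AS (0.54). It did not overlap in either line and was not called. The other 2 genes of this list were not called either. EIF2AK3, which encodes PERK itself, had 9.21, 7.77 and 9.79 CPM with DMSO and 6.81, 8.78 and 8.33 CPM with Erastin in KELLY, which overlapped (-0.18). In SK-N-AS it had 15.3, 14.8 and 16.7 CPM and 18.5, 19.7 and 17.9 CPM, without overlap (0.29, edgeR adjusted p = 0.421). PPP1R15A, the phosphatase subunit GADD34 that reverses the phosphorylation of eIF2alpha, overlapped in both lines. It had 5.89, 19.0 and 12.4 CPM with DMSO and 31.1, 13.3 and 16.4 CPM with Erastin in KELLY (0.71), and 47.1, 44.9 and 31.0 CPM and 38.4, 46.9 and 38.6 CPM in SK-N-AS (0.04).

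A wider list of 111 other genes of the ER pathway, from the translocon to COPII transport, was examined in the same way. In SK-N-AS none of 109 tested was a DEG by edgeR and none had an adjusted p under 0.05, while 9 had an unadjusted p of at most 0.05, where 8.77% of all genes did, and the median log2 fold change was 0.01. In KELLY 1 of 107 was a DEG, where 2.03% of all genes were. This was ERP29, a redox-inactive isomerase relative, which had 35.7, 62.7 and 45.1 CPM with DMSO and 96.3, 60.9 and 63.6 CPM with Erastin (0.62, unadjusted p = 0.0499 and adjusted p = 0.770 from edgeR). Its groups overlapped. Between the lines with DMSO, 47 of 109 were higher in SK-N-AS (27.8% of all genes) and 12 in KELLY (28.2% of all genes), with a median of -0.52.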

How the data were processed

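RNA-seq reads of KELLY and SK-N-AS cells (3 DMSO and 3 Erastin samples each) were trimmed with Trimmomatic, aligned to GRCh38 and assigned to GENCODE genes with HTSeq by the authors, who deposited raw counts. Column names gave each sample's group. Each line was fitted in R 4.3.3 with edgeR 4.0.16 (filterByExpr, TMM, quasi-likelihood test, Benjamini-Hochberg over all genes tested), the DMSO samples alone between lines, and all 12 samples for the interaction. Levels are CPM scaled by TMM over 12 libraries, and intervals are at 95%. The genes, lists, elements and tests were chosen with earlier results of these data known. All list genes are accounted for, and sample values are given for called genes, the 3 largest estimates each way per line, the 5 largest called differences each way between lines, and 8 genes fixed by name. Transcript length and GC content came from GENCODE on GRCh38 and promoters from RefSeq. Of the 58735 rows, 36194 matched by symbol and 850 by older symbol. GC trends were removed as offsets by loess (span 0.5, degree 2). The fits were tested on simulated counts without GC trends and with larger changes than those of XBP1 and HERPUD1. That test does not cover the GC trends of these libraries or changes of that size. Alternatives were RLE or library size scaling, DESeq2 1.42.0, limma-voom (3.58.1), other filters, protein-coding genes, the replicate block, the GC correction, 1 residual factor, 1 joint fit, and each library left out. A planned look at protein ends was not run, since no protein sequences were used here.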

Additional observations from a re-analysis of the deposited data

How the results depend on the processing

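Of 763 alternative values, 715 kept their direction and their side of the threshold (or stayed within the spread or 1.5 times the count). Counts of genes with an unadjusted p of at most 0.05 were less stable. In KELLY the count of 1 ran from 0 to 20 over the alternatives and from 0 to 2 with 1 library left out. In SK-N-AS the count of 5 ran from 2 to 15 and from 2 to 7. XBP1 and HERPUD1 in SK-N-AS passed an adjusted p under 0.05 under every alternative run, with adjusted p of at most 0.0167 and 0.0118, and of at most 0.0427 and 0.0160 with 1 library left out. The number of genes with an adjusted p under 0.05 in SK-N-AS moved from 2 to 7 with the GC correction, 10 with the GC correction and the replicate block together, and 10 with 1 factor from the residuals as covariate, when 6.74%, 11.5% and 11.4% of all genes passed. With that factor it moved to 14 in KELLY (31.0% of all genes passed) and to 10 for the interaction (20.3%). The factor comes from the residuals of the same counts and takes up their spread by construction, so no conclusion is drawn from the counts with it. Why the counts moved with the GC correction was not tested. With the GC correction the KELLY estimates of ATF6 (0.0508), HSP90B1 (0.0588) and SDF2L1 (-0.0883) changed sign, as they did with the block added (0.0504, 0.0587 and -0.0878), and none was called. With 1 library left out, DEGs were 0 to 1 in KELLY (EDEM2, when DMSO replicate 2 was left out) and always 2 for SK-N-AS, and adjusted calls for SK-N-AS were 2 to 5 (HSPA13, SDF2L1 and SEL1L were added without DMSO replicate 3, when 5.2% of all genes passed). Between lines 15 to 18 genes were higher in SK-N-AS and 1 to 2 in KELLY (DERL2 was added without KELLY DMSO replicate 2), with a median of -0.63 to -0.55. Uncalled estimates also changed sign: in KELLY without Erastin replicate 1, ATF6 (-0.223 to 0.0291 over all libraries left out) and HSP90B1 (-0.201 to 0.0288), and in SK-N-AS ATF6 (-0.0254 to 0.112) and DNAJB9 (-0.159 to 0.250) without DMSO replicate 1 and HSP90B1 (-0.168 to 0.00544) without DMSO replicate 3. Same-numbered libraries had residual correlations of -0.77, -0.81 and -0.13 in KELLY and -0.13, 0.19 and 0.40 in SK-N-AS. These residuals still held each library's GC trend, so they cannot show whether the replicate numbers pair the samples. The replicate block left 0 adjusted calls in KELLY, 2 in SK-N-AS and 17 of 18 calls between lines, without DNAJC3. DERL3, with 1 to 9 counts per library, did not pass the standard low-count filter. It entered the alternative without that filter and was not called there.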
